A study of Mus musculus with 6 samples.

Results

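The inter-alpha-trypsin inhibitor family was followed at the mRNA level in livers of tumor-bearing mice. Its members here were 6 genes, picked by symbol: the heavy chain genes Itih1, Itih2, Itih3, Itih4 and Itih5, and Ambp, which encodes the precursor of the light chain bikunin. They were 6 of 20140 genes in the count table, and all 6 passed the filter on low counts. Whole livers of 6 mice were sequenced on day 21, 2 per group. The sham group, titled control in the labels, was operated on and received PBS without tumor cells. The group labelled intra-C was read from the study's methods as mice with CT26 cells placed in the cecum, the orthotopic premetastatic niche (PMN) model, and the group labelled intra-S as mice with CT26 cells injected into the spleen, the liver metastasis model. The strain was BALB/c, from which the mouse colorectal carcinoma line CT26 was also derived. No engineered allele is named for these groups, and the labels give no age. The 2 tumor groups differed in route as well as in stage, so that the route and the stage cannot be told apart.

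The family makes a set of plasma proteins with an unusual architecture. Hepatocytes synthesize the precursor Ambp and cleave it into alpha-1-microglobulin, a heme and radical scavenger, and bikunin, a Kunitz-type serine protease inhibitor that carries a chondroitin sulfate chain. Heavy chains are then attached to that chain by an ester bond: the products of Itih1 and Itih2 with bikunin form inter-alpha-inhibitor, and the product of Itih3 with bikunin forms pre-alpha-inhibitor. In inflamed tissue the enzyme TSG-6, the product of Tnfaip6, moves heavy chains from bikunin onto hyaluronan, which crosslinks this matrix polysaccharide. Itih4 encodes a plasma protein that does not join bikunin and is known as an acute phase protein in several mammals, and Itih5 is known mainly from tissues other than liver.

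In both tumor groups the heavy chain genes Itih3 and Itih4 rose and Itih1, Itih2 and Itih5 did not pass the test. Ambp rose in intra-C livers and missed the threshold in intra-S livers. The test was edgeR's quasi-likelihood test over all 6 livers, with a gene called at a Benjamini-Hochberg adjusted p under 0.05 over the 16370 genes tested. In intra-C versus sham livers, 3 of 6 members were called higher and 0 lower, beside 4.92% of all tested genes called higher and 2.38% called lower. In intra-S versus sham livers, 2 of 6 were called higher and 0 lower, beside 6.78% of all tested genes called higher and 3.95% called lower. Both comparisons used the same sham livers. The median log2 fold change of the 6 members was 0.92 in intra-C and 0.69 in intra-S livers, beside 0.01 and 0.04 for all tested genes.

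Libraries held between 32838321 and 43368309 counts. Levels are given as CPM, the count of a gene relative to the size of its library after scaling by TMM factors, which correct for differences in RNA composition. Where no read was counted, the true value may still reach 3 counts, or 0.0679 to 0.0928 CPM depending on the liver, a limit for counting error only. The intra-S livers differed from each other more than the livers of the other groups did: among 7261 genes with at least 10 CPM on average, 16.9% differed by more than 2-fold between the intra-S livers, beside 2.86% between the intra-C livers and 0.992% between the sham livers. Hepatocyte markers were present at high levels in every liver, with 14 of 14 listed and a summed level between 123162 and 198317 CPM. The series calls its samples biological replicates, and with 2 livers per group an exact permutation test (two-sided) cannot go below p = 0.333. In whole liver, fewer cells of a type and less RNA per cell cannot be told apart.

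Itih4, Itih3 and Itih1 lie side by side on chromosome 14 within 56814 bases, in RefSeq coordinates on GRCm38.p6, which corresponds to the authors' mm10. Itih4 spans chr14:30886476-30901986 on the plus strand, Itih3 spans chr14:30908572-30923787 on the minus strand and Itih1 spans chr14:30929180-30943289 on the minus strand. The 3' ends of Itih4 and Itih3 face each other across 6585 bases, and 5392 bases separate Itih3 from Itih1. Itih2 (chr2:10094591-10130683, minus strand) and Itih5 (chr2:10153536-10256529, plus strand) form a divergent pair on chromosome 2 with 22852 bases between their starts. Ambp lies alone on chr4:63143275-63154172, minus strand. In the GENCODE M21 basic annotation the longest models have 22 exons for Itih1, 21 for Itih2, 22 for Itih3, 23 for Itih4, 14 for Itih5 and 10 for Ambp, and no other RefSeq gene overlaps a member.

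The 120 bases before the RefSeq start are shown for Itih4 and Ambp, which were called in intra-C livers, and for Itih1, the cluster gene that was not called. Of the 250 bases that the RefSeq table gives before a start, 200 lay inside the gene span of Itih3 and 7 inside that of Itih5, so that these 2 windows do not lie wholly before the gene and were not shown. Sequences are from RefSeq (GRCm38.p6) and run 5′ to 3′ toward the start. Capitals mark matches on either strand to TTCNNNGAA, a STAT3-type motif, or to TTNNGNAA, a C/EBP-type motif.
Itih4 promoter, chr14:30886356-30886475, plus strand: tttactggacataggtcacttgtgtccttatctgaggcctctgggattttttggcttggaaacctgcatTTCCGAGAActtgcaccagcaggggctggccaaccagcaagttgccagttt
Ambp promoter, chr4:63154173-63154292, minus strand: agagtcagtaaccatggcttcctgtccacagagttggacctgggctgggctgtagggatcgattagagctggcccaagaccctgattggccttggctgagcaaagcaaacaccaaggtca
Itih1 promoter, chr14:30943290-30943409, minus strand: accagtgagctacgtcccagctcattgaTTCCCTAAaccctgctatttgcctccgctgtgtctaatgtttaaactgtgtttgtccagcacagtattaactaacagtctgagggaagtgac

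All 6 members had a promoter in the RefSeq table, and the motifs were searched in the 250 bases given before each start. The STAT3-type motif was found in Itih4 alone among the 6 windows, with its match beginning 51 bases before the start, and 7.18% of 27025 promoters held this motif. The C/EBP-type motif was found in Itih1, beginning 92 bases before the start, and in Itih2, with matches beginning 59 and 33 bases before the start, and 36.9% of promoters held it. No match of one motif overlapped a match of the other. The windows of Ambp, Itih3 and Itih5 held neither string of letters, and those of Itih3 and Itih5 lie partly inside the gene.

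Itih3, the heavy chain of pre-alpha-inhibitor, changed most. It had 830 and 846 CPM in sham livers, 7622 and 7123 CPM in intra-C livers and 4408 and 5322 CPM in intra-S livers. Every tumor-group liver was far above both sham livers, and each intra-S liver was below each intra-C liver. Itih3 rose 8.8-fold in intra-C livers (log2 fold change 3.14, SE 0.24, adjusted p = 0.0058) and 5.81-fold in intra-S livers (2.54, SE 0.23, adjusted p = 0.00578). Only 2.77% of tested genes had a larger log2 fold change in the first comparison and 5.91% in the second.

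Itih4, the heavy chain family member that circulates without bikunin, followed. It had 1268 and 1339 CPM in sham livers, 8591 and 8870 CPM in intra-C livers and 2782 and 5062 CPM in intra-S livers. The 3 groups did not overlap, and the intra-S livers differed 1.82-fold from each other, the widest gap within a group for any member. Itih4 rose 6.7-fold in intra-C livers (log2 fold change 2.74, SE 0.34, adjusted p = 0.0118). It rose 3.01-fold in intra-S livers (log2 fold change 1.59, SE 0.32, adjusted p = 0.032), and the log2 fold change was 1.96 without intra-S liver 1 and 1.09 without intra-S liver 2, each still called. The intra-S call was lost with only the 2 groups compared (adjusted p = 0.0826), with library size in place of TMM (0.0595) and with limma on the TPM values (0.0743 and 0.0758), in a range from 8.76e-05 to 0.232 over all alternatives.

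Ambp, the bikunin and alpha-1-microglobulin precursor, had 2570 and 2573 CPM in sham livers, 5503 and 5071 CPM in intra-C livers and 4384 and 4966 CPM in intra-S livers. Both sham livers lay below every tumor-group liver. Ambp rose 2.06-fold in intra-C livers (log2 fold change 1.04, SE 0.21, adjusted p = 0.0406). The value in intra-S livers was 1.82-fold of sham (log2 fold change 0.86, SE 0.21, adjusted p = 0.0522), just above the threshold. The intra-C call was lost with library size in place of TMM (0.78, adjusted p = 0.0842) and with limma on the TPM values (0.85, adjusted p = 0.11 and 0.138), in a range from 3.61e-05 to 0.335, and the intra-S value was called by DESeq2 (adjusted p = 0.000828) and without the filter on low counts (0.0451), in a range from 0.000828 to 0.331.

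Itih1 and Itih2 encode the heavy chains of inter-alpha-inhibitor. Itih1 had 551 and 630 CPM in sham livers, 1061 and 1007 CPM in intra-C livers and 597 and 825 CPM in intra-S livers. The intra-C livers were above both other groups, whereas intra-S liver 1 lay between the sham livers. The intra-C value was 1.75-fold of sham (log2 fold change 0.81, SE 0.24, adjusted p = 0.0929) and the intra-S value 1.2-fold (0.27, SE 0.24, adjusted p = 0.489), which turned to -0.044 with limma on the TPM values. DESeq2 called Itih1 (adjusted p = 0.0238) and Itih2 (0.036) in intra-C livers, where their adjusted p ranged from 0.00426 to 0.461 and from 0.0108 to 0.517 over the alternatives.

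Itih2 had 1157 and 1283 CPM in sham livers, 2081 and 1762 CPM in intra-C livers and 1830 and 1647 CPM in intra-S livers. Both tumor groups lay above sham and overlapped each other. Its values were 1.58-fold of sham in intra-C livers (log2 fold change 0.66, SE 0.22, adjusted p = 0.117) and 1.43-fold in intra-S livers (0.51, SE 0.22, adjusted p = 0.171).

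Itih5 was scarce in every liver. It had 6.16 and 8.96 CPM in sham livers, 12.6 and 9.06 CPM in intra-C livers and 10.8 and 7.68 CPM in intra-S livers, from 250 to 494 counts per liver. The intra-C livers lay just above both sham livers and the intra-S livers overlapped both groups. The log2 fold change was 0.52 in intra-C livers (SE 0.32, adjusted p = 0.346) and 0.28 in intra-S livers (SE 0.32, adjusted p = 0.585), the latter at -0.003 with library size in place of TMM.

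**Figure D1:**
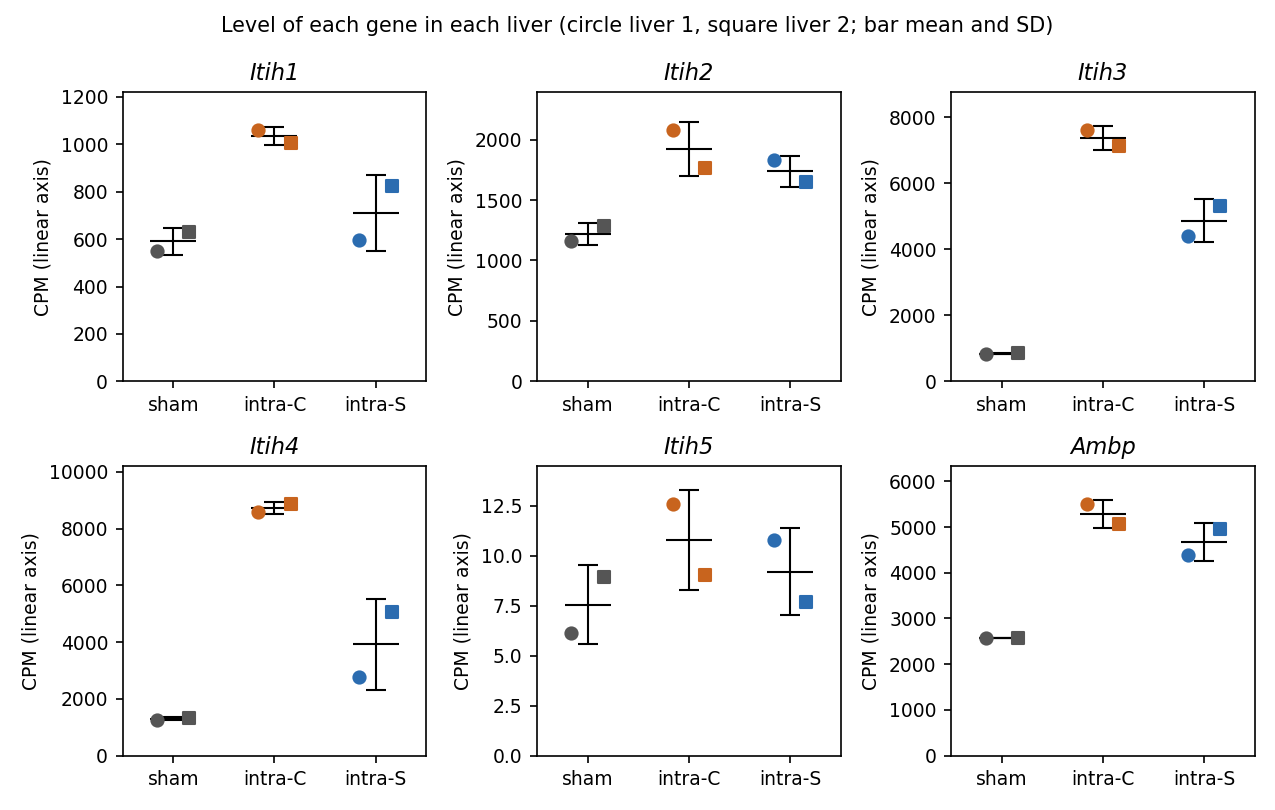
CPM of each of the 6 genes (linear axes that start at 0, 1 panel per gene) in sham, intra-C and intra-S livers. Each circle is liver 1 and each square liver 2 of a group, and the bar is the mean with its SD (n = 2). Itih3 and Itih4 stand far above sham in both tumor groups, and the intra-S livers are spread widest for Itih4.

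As mean ± SD (n = 2), Itih3 was at 838 ± 11.4 CPM in sham, 7373 ± 353 CPM in intra-C and 4865 ± 646 CPM in intra-S livers. Itih4 was at 1304 ± 50.6, 8731 ± 197 and 3922 ± 1612 CPM in the same order, and Ambp at 2572 ± 2.28, 5287 ± 305 and 4675 ± 411 CPM. For Itih1 the means were 590 ± 55.7, 1034 ± 38.6 and 711 ± 161 CPM, for Itih2 1220 ± 89.4, 1922 ± 226 and 1739 ± 129 CPM, and for Itih5 7.56 ± 1.98, 10.8 ± 2.49 and 9.22 ± 2.18 CPM. All 6 members had both intra-C livers above both sham livers, where 34.4% of all tested genes had this pattern. In intra-S livers this held for Itih2, Itih3, Itih4 and Ambp, 4 of 6 members, where 30.4% of all tested genes had it.

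The number of members called moved with the livers in the fit. Without either sham liver edgeR called 0 of 6 members and 0 genes of the whole table in either comparison, while the log2 fold change of Itih3 in intra-C livers was 3.13 and 3.15 (adjusted p = 0.111 and 0.114, with a range from 1.4e-40 to 0.114 over the alternatives). Without either intra-C liver, Itih3 was the 1 member still called in intra-C livers (adjusted p = 0.0498 and 0.0493), in fits that called 0.352% and 0.323% of all tested genes higher. In the same fits Itih4 lost its call in intra-S livers (adjusted p = 0.0831 each time, with a range from 8.76e-05 to 0.232 over the alternatives), where 2.13% and 1.97% of all tested genes were called higher. Without either intra-S liver, 5 members were called in intra-C livers, with Itih1 and Itih2 added, in fits that called 14.5% and 14.4% of all tested genes higher. Without intra-S liver 1, 3 members were called in intra-S livers (Ambp added), and without intra-S liver 2, 4 were called (Ambp and Itih2 added), in fits that called 9.58% and 17.3% of all tested genes higher.

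The comparison of intra-S with intra-C livers asks whether the family differed between the liver metastasis model and the premetastatic model, which differ in route as well as in stage. No member passed the test: edgeR called 0 of 6, beside 0% of all tested genes called higher and 0% called lower, and the smallest adjusted p of any gene was 0.113. At an unadjusted p under 0.05 there were 2 members, Itih3 and Itih4, beside 13.4% of all tested genes. DESeq2 called 1 member, Itih4 (log2 fold change -1.16, adjusted p = 0.0309, with a range from 0.00104 to 0.76 over the alternatives), beside 1.81% of all genes called lower and 1.55% higher. The log2 fold change of Itih4 was -1.15 (SE 0.32, adjusted p = 0.291), that of Itih3 -0.6 (SE 0.22, adjusted p = 0.348) and that of Itih1 -0.54 (SE 0.24, adjusted p = 0.389). Ambp (-0.18, SE 0.21), Itih2 (-0.14, SE 0.22) and Itih5 (-0.23, SE 0.32) had smaller values. Both intra-S livers were below both intra-C livers for Itih1, Itih3, Itih4 and Ambp, 4 of 6 members, a pattern that 21.5% of all tested genes had. Without intra-S liver 2, so with intra-S liver 1 alone, 3 members were called lower, namely Itih1, Itih3 and Itih4, in a fit that called 9.02% of all tested genes lower and 7.53% higher, and without intra-S liver 1 none was called (0.176% and 0.137% of all tested genes).

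**Figure D2:**
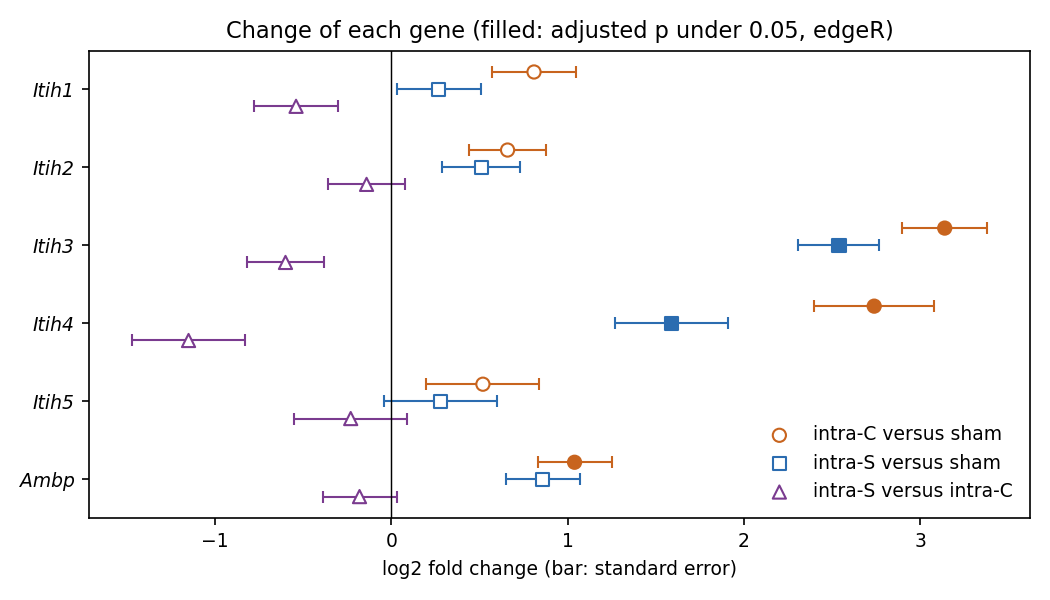
Log2 fold change of each gene on the x axis, with its standard error as the bar, in intra-C versus sham, intra-S versus sham and intra-S versus intra-C livers. Filled symbols passed the test (adjusted p under 0.05, edgeR). Itih3 and Itih4 are filled in both comparisons with sham and Ambp in intra-C alone, and every open triangle of intra-S versus intra-C lies left of 0.

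Levels of different genes were compared with the deposited TPM values, in which gene length is taken into account. In sham livers Ambp was the most abundant member, at 4565 and 4559 TPM, and ranked 26 and 24 among all listed genes. It was at 8295 and 8162 TPM in intra-C livers and at 6116 and 7423 TPM in intra-S livers, and remained the highest member in all 6 livers. Itih4 moved from rank 143 and 136 in sham livers to rank 29 and 25 in intra-C livers, and was at rank 75 and 47 in intra-S livers. Itih3 moved from rank 246 and 255 to rank 36 and 37, and was at rank 58 and 46 in intra-S livers. Itih5 stayed between 1.75 and 3.03 TPM. The 6 genes together took 0.719% and 0.76% of all counts in sham livers, 2.25% and 2.35% in intra-C livers and 1.24% and 1.76% in intra-S livers.

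The mix of heavy chain transcripts differed between the groups. The 5 heavy chain genes summed to 2703 and 2907 TPM in sham livers, 11517 and 11924 TPM in intra-C livers and 5288 and 7582 TPM in intra-S livers. Itih4 was the most abundant heavy chain in sham livers (33.4% and 32.7% of the sum), ahead of Itih2 (30.8% and 31.7%). Itih3 held 20.9% and 19.7% of the sum in sham livers, 38.2% and 36.8% in intra-C livers and 44.5% and 40.2% in intra-S livers. The share of Itih1 was 14.9% and 15.7% in sham, 5.7% and 5.57% in intra-C and 6.46% and 6.67% in intra-S livers. The share of Itih2 was 11.1% and 9.65% in intra-C and 19.6% and 13.2% in intra-S livers, and Itih4 held 45% and 47.9% in intra-C and 29.4% and 40% in intra-S livers. Itih4 was the most abundant heavy chain in both intra-C livers and Itih3 in intra-S liver 1, while Itih3 and Itih4 were nearly level in intra-S liver 2.

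Ratios between genes of one liver do not depend on the scaling of its library. The ratio of Itih3 to Itih1, the pre-alpha-inhibitor chain relative to an inter-alpha-inhibitor chain, was 1.41 and 1.25 in sham livers, 6.71 and 6.61 in intra-C livers and 6.89 and 6.02 in intra-S livers. Both tumor groups were above sham and overlapped each other in this ratio, although the levels of Itih3 and Itih1 themselves did not overlap between them. Itih3 to Itih2 was 0.677 and 0.622 in sham, 3.45 and 3.81 in intra-C and 2.27 and 3.05 in intra-S livers. The ratio of the 2 inter-alpha-inhibitor chains, Itih2 to Itih1, was 2.08 and 2.02 in sham, 1.94 and 1.73 in intra-C and 3.03 and 1.98 in intra-S livers, where intra-S liver 1 was the one high value. Itih4 to Itih3 was 1.6 and 1.66 in sham, 1.18 and 1.3 in intra-C and 0.66 and 0.995 in intra-S livers, with no overlap between the 3 groups.

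The transcripts of the chains that join bikunin were also set against those of its precursor. Itih1, Itih2 and Itih3 summed to 0.394 and 0.429 of Ambp in sham livers, 0.763 and 0.76 in intra-C livers and 0.61 and 0.613 in intra-S livers. As mean ± SD (n = 2) this ratio was 0.411 ± 0.0243, 0.762 ± 0.00188 and 0.612 ± 0.00199. The livers of a group lay close together and the 3 groups did not overlap, and Ambp exceeded the sum of these chains in every liver. The ratios are given as a description and were not tested.

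**Figure D3:**
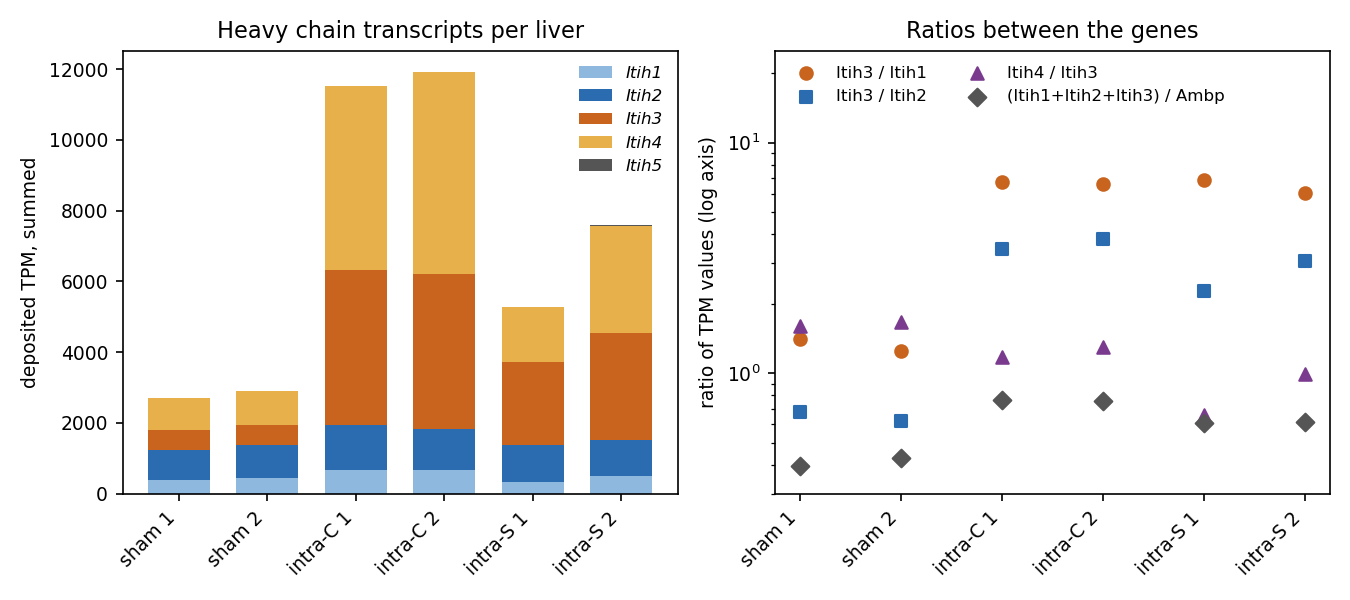
Left, stacked bars of the deposited TPM of Itih1 to Itih5 in each liver (linear axis from 0). Right, ratios of TPM values in each liver on a log axis. The stacks are highest in intra-C livers, at 11517 and 11924 TPM, and Itih3 / Itih1 is above 6 in all 4 tumor-group livers against 1.41 and 1.25 in sham livers.

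Members that lie next to each other did not share one value of change. In the chromosome 14 cluster, Itih4 and Itih3 rose in both tumor groups and Itih1, whose body ends 5392 bases from the start of Itih3, did not pass the test. Of 12 other RefSeq genes that start within 100 kb of a cluster member, 7 were tested and 1 was called in each comparison. This was Mustn1, a small nuclear protein gene known from muscle and skeletal tissue, on the same strand as Itih4 and with its start 7219 bases before that of Itih4. It was at 1.45 and 1.2 CPM in sham, 8.1 and 8.85 CPM in intra-C and 9.59 and 11.5 CPM in intra-S livers (log2 fold change 2.67, adjusted p = 0.00738, and 2.99, adjusted p = 0.00578). Unlike Itih4, its intra-S livers were above its intra-C livers. The median log2 fold change of the 7 neighbours was 0.3 in both comparisons. Near Itih2 and Itih5, 3 of 4 neighbours were tested and none was called by edgeR, with log2 fold changes from -0.85 to 0.21, and near Ambp the single tested neighbour of 2 was not called either (-0.74 and -1.09).

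**Figure D4:**
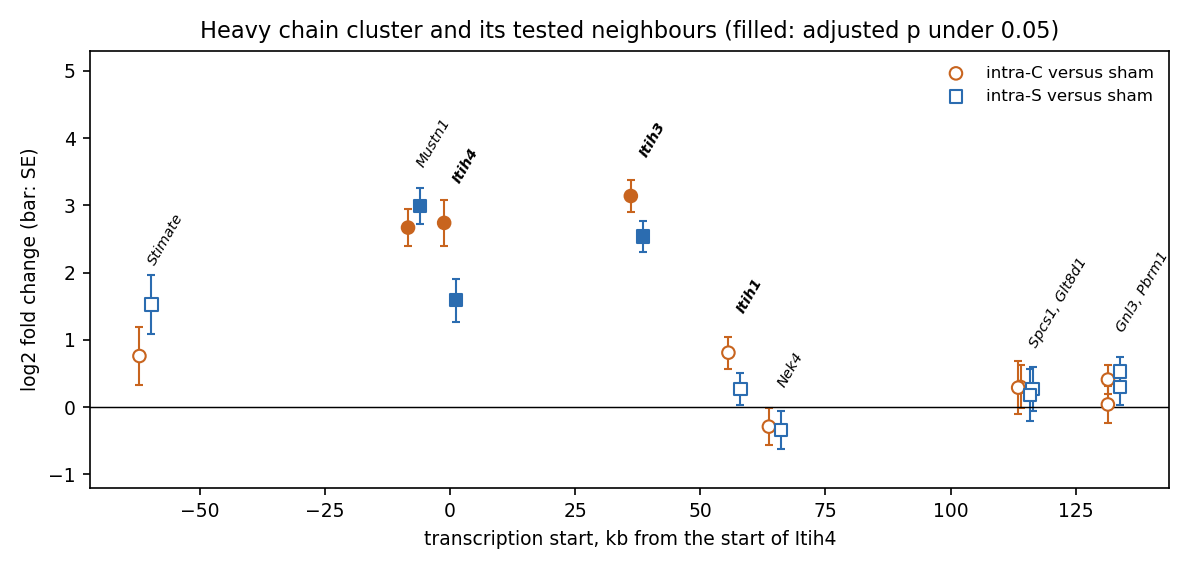
Log2 fold change (bar: SE) of Itih4, Itih3, Itih1 and the 7 tested neighbours against the distance of each start from that of Itih4 in kb. Circles are intra-C versus sham and squares intra-S versus sham livers, and filled symbols passed the test. Itih3, Itih4 and Mustn1 are filled in both comparisons, and no neighbour beyond Itih1 is filled.

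Over the 6 livers, the genes with the most similar log2 CPM were listed for each member as a description. The 6 points fall into 3 groups and share their libraries, so that any gene that differed between groups in the same order scores high. Among 7256 genes, those most like Itih3 were Il13ra1 (Pearson r = 0.999), an interleukin receptor chain, Pzp (r = 0.999), a plasma protease inhibitor of the alpha-macroglobulin family, and Fga (r = 0.998), the fibrinogen alpha chain. Fga was at 2446 and 2252 CPM in sham, 20453 and 18203 CPM in intra-C and 13265 and 13462 CPM in intra-S livers. The genes most like Itih4 were Isyna1 (r = 0.998), an enzyme of inositol synthesis, Qsox1 (r = 0.997), a secreted sulfhydryl oxidase, and Pld1 (r = 0.996), a phospholipase. Isyna1 had the same low intra-S liver 1 as Itih4, with 10.4 and 33.9 CPM in the intra-S livers against 66.4 and 67.5 CPM in the intra-C livers. For Ambp they were Slc37a1, Igdcc4 and Aqp1 (r = 0.999, 0.998 and 0.998), for Itih1 Osbpl9, Raph1 and Heatr5a (0.987, 0.985 and 0.984), for Itih2 Fxr1, 1810013L24Rik and Dpy19l4 (0.999, 0.996 and 0.992), and for Itih5 AW549877, Mtmr1 and Fmr1 (0.98, 0.971 and 0.962). Between members, r ranged from 0.51 for Itih1 and Itih5 to 1.0 for Itih3 and Ambp.

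Partners of the family were read from fixed lists. Of the genes that move heavy chains to hyaluronan or link it to other matrix proteins, 5 of 8 were listed and tested, and 1 rose in each comparison, with medians of 0.68 in intra-C and 0.64 in intra-S livers. This gene was Vcan, the hyaluronan-binding proteoglycan versican, at 0.148 and 0.136 CPM in sham, 3.36 and 6.19 CPM in intra-C and 0.904 and 4.05 CPM in intra-S livers (log2 fold change 5.04, adjusted p = 0.0277, and 4.1, adjusted p = 0.0343). In intra-S livers its log2 fold change was 4.81 without liver 1 and 2.65 without liver 2, and both calls of Vcan were lost with limma on log2(TPM + 1) (0.64, adjusted p = 0.0892, and 0.33, adjusted p = 0.268) and without any 1 of the sham or intra-C livers (adjusted p from 0.073 to 0.224, with a range from 2.19e-07 to 0.268 over the alternatives). Tnfaip6, the heavy chain transferase, was barely detected. It was at 0.0493 and 0 CPM in sham, 0.993 and 0.217 CPM in intra-C and 0.554 and 0.245 CPM in intra-S livers (adjusted p = 0.103 and 0.125).

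Of 7 hyaluronan synthesis genes 6 were tested, and edgeR called 0 in either comparison, with medians of 1.31 and 0.58. At an unadjusted p under 0.05 there were 3 in intra-C and 4 in intra-S livers, where 27% and 30.2% of all tested genes passed, and DESeq2 called 2 higher and 1 lower, and 1 higher and 1 lower. DESeq2 called 10% of all genes higher and 6.31% lower in intra-C livers, and 11.5% and 8.03% in intra-S livers. The synthase Has1 was at 0.148 and 0.0453 CPM in sham, 0.331 and 0.247 CPM in intra-C and 0.787 and 0.589 CPM in intra-S livers (adjusted p = 0.289 and 0.0829), and Has3 was below 1 CPM in every liver. Ugdh, which makes the UDP-glucuronate used for hyaluronan and for drug conjugation, was the most abundant of this list, at 251 and 215 CPM in sham, 155 and 95.6 CPM in intra-C and 117 and 89.7 CPM in intra-S livers (adjusted p = 0.115 and 0.0538). Of 7 tested breakdown genes, 1 rose in each comparison, with medians of 0.57 and 0.35. Cemip2, a cell surface protein linked to hyaluronan breakdown, was at 8.99 and 6.75 CPM in sham, 29.4 and 30.3 CPM in intra-C and 26.6 and 18.3 CPM in intra-S livers (log2 fold change 1.92, adjusted p = 0.0156, and 1.51, adjusted p = 0.0216).

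Of 6 hyaluronan receptor genes, 2 rose in intra-C and 3 in intra-S livers, with medians of 1.46 and 1.94. Cd44, the receptor of leukocytes and many tumor cells, was at 3.79 and 6.04 CPM in sham, 25 and 29.1 CPM in intra-C and 31.9 ± 15.1 CPM (mean ± SD, n = 2) in intra-S livers (edgeR log2 fold change 2.46, adjusted p = 0.0235, and 2.7, adjusted p = 0.0153). Of the receptor genes of sinusoidal and lymphatic endothelium, Stab1 rose in intra-C livers (1.45, adjusted p = 0.0324) and was at 1.02 in intra-S livers (adjusted p = 0.0611). Stab2 rose in intra-S livers (1.58, adjusted p = 0.0403) and was at 1.47 in intra-C livers (adjusted p = 0.0578). Lyve1 rose in intra-S livers (5.57, adjusted p = 0.0242) and was at 2.75 in intra-C livers (adjusted p = 0.117), where DESeq2 called it (adjusted p = 0.0049). By edgeR, none of these 3 genes was called between intra-S and intra-C livers (adjusted p = 0.495, 0.901 and 0.308). DESeq2 called 1 of the 6 receptor genes higher and 0 lower there, beside 1.55% and 1.81% of all genes. Lyve1 was at 112 CPM in intra-S liver 1 and at 14.2 CPM in intra-S liver 2, and its log2 fold change was 3.43 without liver 1 and 6.4 without liver 2. Its call was lost without any 1 of the sham or intra-C livers (adjusted p from 0.0649 to 0.183, with a range from 5.88e-11 to 0.183 over the alternatives). Summed endothelial markers, 8 of 8 listed, were at 87.4 and 97.8 CPM in sham, 301 and 267 CPM in intra-C and 399 and 221 CPM in intra-S livers, and summed neutrophil markers, 10 of 10 listed, at 3.74 and 5.03, 286 and 636, and 1025 and 424 CPM. The endothelial list itself holds Stab2 and Lyve1. The part of these cells in the receptor values was not tested.

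Of 19 genes that build chondroitin sulfate chains such as that of bikunin, edgeR called 0 in intra-C and 1 in intra-S livers. At an unadjusted p under 0.05 there were 4 and 10, beside the shares of all genes just given, and DESeq2 called 2 and 4 higher. Their medians were 0.59 and 1.0, or 0.59 and 0.92 with Xylt1, which had no count in sham livers, at its lower bound. The gene called was Chst12, a chondroitin sulfotransferase, at 0.345 and 0.362 CPM in sham, 0.942 and 0.835 CPM in intra-C and 2.1 and 1.69 CPM in intra-S livers (log2 fold change 1.32, adjusted p = 0.142, and 2.41, adjusted p = 0.0313). Of the 4 proprotein convertase genes on the precursor cleavage list, edgeR and DESeq2 called 0 in either comparison, 1 had an unadjusted p under 0.05 in each, and the medians were 0.36 and -0.13. Furin, the most abundant of them, was at 97.8 and 90.8 CPM in sham, 210 and 121 CPM in intra-C and 424 and 71.6 CPM in intra-S livers, so that its 2 intra-S livers lay on opposite sides of every sham and intra-C liver.

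Of the other Kunitz-type inhibitor genes, 6 of 9 were tested, and edgeR called 0 in intra-C and 1 in intra-S livers, with medians of 0.36 and -0.21. At an unadjusted p under 0.05 there were 3 in intra-C and 2 in intra-S livers, beside 27% and 30.2% of all tested genes. DESeq2 called 2 higher and 1 lower in intra-C livers, beside 10% and 6.31% of all genes, and 2 higher and 0 lower in intra-S livers, beside 11.5% and 8.03%. Tfpi, the inhibitor of tissue factor, was at 3.6 and 3.17 CPM in sham, 6.09 and 8.6 CPM in intra-C and 8.31 and 12.7 CPM in intra-S livers (log2 fold change 1.12, adjusted p = 0.0885, and 1.64, adjusted p = 0.0307). Among proteases that bikunin can inhibit, 3 of 6 tested rose in each comparison, all of them serine proteases of neutrophil granules. DESeq2 called 4 of the 6 higher and 0 lower in intra-C livers, and 3 higher and 1 lower in intra-S livers, beside the shares just given. Prtn3 (proteinase 3) was at 0.197 and 0.181 CPM in sham, 56.2 and 49.7 CPM in intra-C and 17.1 and 48.8 CPM in intra-S livers. Elane (neutrophil elastase) and Ctsg (cathepsin G) had no count in either sham liver. Against a floor of 3 counts in a sham liver, Elane was at least 133-fold higher in intra-C and at least 99.1-fold higher in intra-S livers, and Ctsg at least 80.1-fold and 63.7-fold higher. These 3 genes rose over sham as the neutrophil markers given above did, a list that itself holds Elane. Among the tumor-group livers they did not follow that sum: Prtn3 was lowest in intra-S liver 1, where the sum was highest (1025 CPM). The hepatocyte protease gene Plg, which encodes plasminogen, was at 2433 and 2583 CPM in sham, 4566 and 4014 CPM in intra-C and 2985 and 3016 CPM in intra-S livers (adjusted p = 0.0779 and 0.448). Klkb1, the plasma kallikrein gene of hepatocytes, was at 294 and 340 CPM in sham, 186 and 170 CPM in intra-C and 67.1 and 194 CPM in intra-S livers (log2 fold change -0.83, adjusted p = 0.301, and -1.28, adjusted p = 0.127), and DESeq2 called it lower in intra-S livers (adjusted p = 0.0406).

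**Figure D5:**
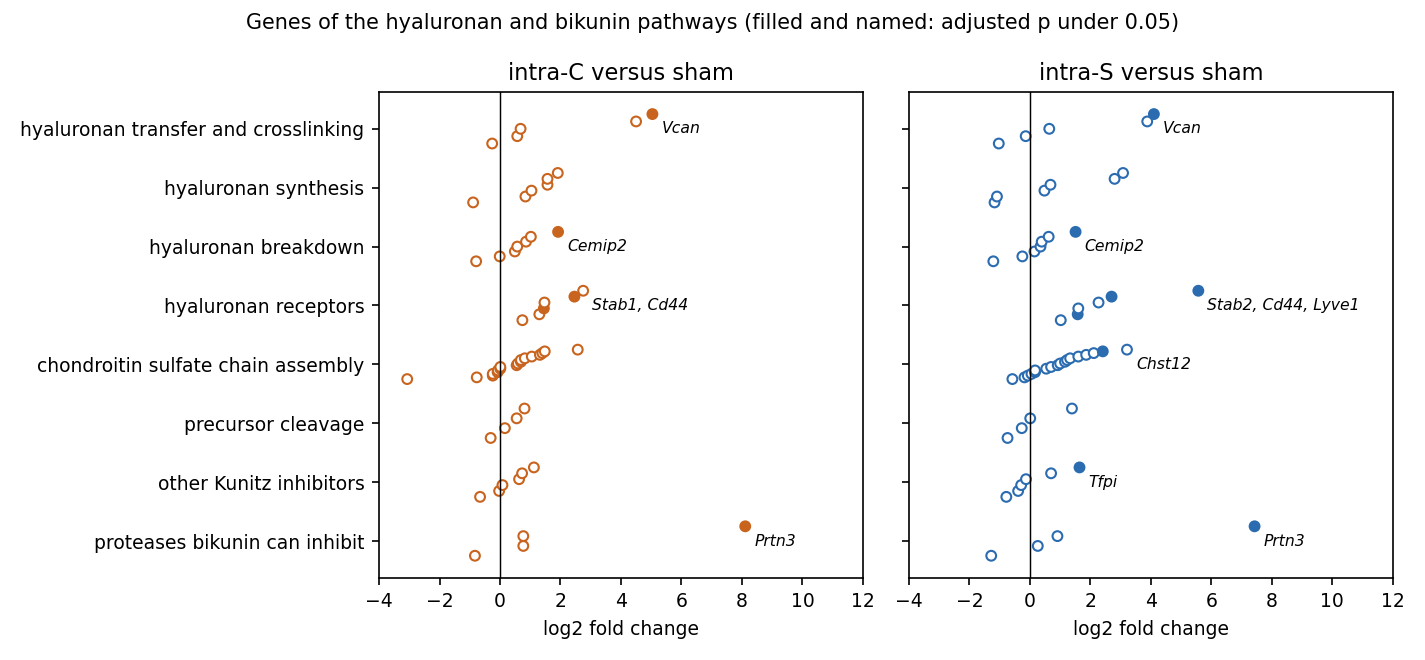
Log2 fold change (x axis) of each tested gene in the 8 pathway lists, in intra-C versus sham (left) and intra-S versus sham livers (right). Each circle is 1 gene, and filled circles passed the test and are named. Elane, Ctsg and Xylt1 had no count in sham livers and are not drawn, and most circles of the synthesis, chain assembly and cleavage lists are open.

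Most of the other acute phase genes rose along with Itih3 and Itih4. Of 19 genes of the rising class, 18 rose in intra-C and 17 in intra-S livers, beside 4.92% and 6.78% of all tested genes called higher. This list was written by hand with earlier results of these data known, so that its counts are a description only. Its medians were 3.32 and 3.02. Itih3 (3.14 and 2.54) and Itih4 (2.74 and 1.59) lay below both medians and Ambp (1.04 and 0.86) further below. The list holds Lcn2, Cd14, Saa3 and Il1rn, which myeloid cells also express, and 10 of 10 neutrophil markers rose in both comparisons, with the sums given above. Without these 4 genes, 15 of 15 rose in intra-C and 14 of 15 in intra-S livers, with medians of 3.23 and 2.95. The part of neutrophils in the values of the 4 genes was not tested. The members of that list with the smallest adjusted p included Orm2 (orosomucoid, 6.1, adjusted p = 0.00543 in intra-C livers), Lrg1 (3.82, adjusted p = 0.00543) and Serpina3n (3.32, adjusted p = 0.00543). Of 9 genes of the class that falls in acute phase responses, 1 rose in intra-C livers, Fetub (1.23, adjusted p = 0.0464). In intra-S livers 3 rose, Fetub, Ahsg and Trf, and 1 fell, Serpina6, the corticosteroid carrier, with list medians of 0.17 and 0.54. Serpina6 was at 1197 and 1047 CPM in sham, 124 and 173 CPM in intra-C and 2.62 and 49.1 CPM in intra-S livers (log2 fold change -2.92, SE 1.12, adjusted p = 0.158, and -5.44, SE 1.26, adjusted p = 0.0442). With only the 2 groups compared, Serpina6 was called lower in intra-C livers (-2.91, adjusted p = 0.000477), in a fit that called 14.2% of all tested genes lower. DESeq2 did not call Serpina6 in intra-C livers (adjusted p = 0.128). Its intra-S livers lay far apart: the log2 fold change was -4.51 without intra-S liver 1 and -8.74 without intra-S liver 2, and the call was lost without any 1 of the sham or intra-C livers (adjusted p from 0.0988 to 0.175, with a range from 7.8e-05 to 0.175 over the alternatives). Alb, the most abundant gene of that class, was at 94260 and 87423 CPM in sham, 120678 and 84369 CPM in intra-C and 156594 and 108439 CPM in intra-S livers.

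In the IL-6 pathway to STAT3, which drives acute phase genes in hepatocytes, 4 of 13 genes rose and 1 fell in each comparison, with medians of 0.95 and 0.94. Stat3 was at 67 and 62.4 CPM in sham, 229 and 226 CPM in intra-C and 134 and 130 CPM in intra-S livers (log2 fold change 1.82, adjusted p = 0.00785, and 1.03, adjusted p = 0.0236). The 3 groups did not overlap, and Stat3 was highest in intra-C livers. Osmr, the oncostatin M receptor, rose in both (3.24, adjusted p = 0.013, and 2.68, adjusted p = 0.0154), and so did Socs3, a feedback inhibitor (4.05, adjusted p = 0.0195, and 3.49, adjusted p = 0.0213). Il6st, the shared receptor chain, rose in intra-C livers (2.24, adjusted p = 0.013, against 0.94, adjusted p = 0.0778, in intra-S livers), where it was at 181 and 203 CPM against 59.6 and 96.6 CPM in intra-S livers. Cebpd and Il6 were highest in intra-S livers, but edgeR called none of Stat3, Il6st, Cebpd and Il6 between intra-S and intra-C livers (adjusted p = 0.285, 0.285, 0.478 and 0.386). DESeq2 called 2 of the 13 genes lower and 0 higher there, beside 1.81% and 1.55% of all genes. Cebpd, an acute phase transcription factor, was at 5.64 and 1.31 CPM in sham, 13.3 and 10.1 CPM in intra-C and 25.1 and 21.8 CPM in intra-S livers, where it rose (2.76, adjusted p = 0.0421, against 1.75, adjusted p = 0.131, in intra-C livers). Il6 itself was at 0.0493 and 0 CPM in sham, 0.255 and 0.0619 CPM in intra-C and 1.4 and 0.515 CPM in intra-S livers (adjusted p = 0.288 and 0.0601). Lifr fell in both comparisons (-1.04, adjusted p = 0.0457, and -1.78, adjusted p = 0.011).

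Cell type markers were set beside the member values. Summed hepatocyte markers were at 131272 and 123162 CPM in sham, 168487 and 123508 CPM in intra-C and 198317 and 146617 CPM in intra-S livers, with 1 of 14 called higher in intra-C livers (Apob) and, in intra-S livers, 1 higher (Serpina1a) and 2 lower (Cyp2e1 and Asgr2). Most of this sum was Alb. Without Alb, the other 13 hepatocyte markers summed to 37012 and 35738 CPM in sham, 47808 and 39140 CPM in intra-C and 41724 and 38178 CPM in intra-S livers. Summed stellate cell and fibroblast markers, 14 of 14 listed, were at 400 and 387 CPM in sham, 455 and 420 CPM in intra-C and 534 and 581 CPM in intra-S livers, with 1 of 14 called higher in intra-C and 5 of 14 in intra-S livers. Of 8 adipocyte markers 4 were listed, without the defining Adipoq and Plin1, and their sum was 1375 and 1119 CPM in sham against 36 to 153 CPM in the tumor-group livers. Nearly all of the sham value was Car3 (1364 and 1109 CPM), which liver also expresses. Summed proliferation markers, 8 of 8 listed, were at 17.3 and 9.73 CPM in sham, 31.3 and 36.7 CPM in intra-C and 84.3 and 73.6 CPM in intra-S livers, with 1 of 8 called higher in intra-C and 5 of 8 in intra-S livers. Summed cholangiocyte and epithelial markers, 7 of 8 listed, were at 211 and 256, 276 and 246, and 619 and 367 CPM, with 0 called in intra-C and Krt18 and Sox9 called higher in intra-S livers. The part of cell composition in the member values was not tested, and tumor cells in intra-S livers, which share the mouse genome, cannot be told apart from host cells in these counts.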

How the data were processed

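Poly(A)-selected RNA of 6 whole mouse livers was analyzed, 2 per group, with groups taken from the sample labels. According to the methods and processing notes, the authors aligned reads to mm10 with HISAT2 2.1.0 and counted uniquely mapped exonic reads with featureCounts (Subread 2.0.6). The annotation and the strand setting are not given in the sources used here. The authors deposited raw counts per gene, and TPM values that they normalized by gene length and library total. Both tables list 20140 genes, and all columns were mapped by name to a liver.

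From the counts, edgeR 4.0.16 (R 4.3.3) computed TMM-scaled CPM and the quasi-likelihood test in 1 fit of all 6 livers (filterByExpr, count minimum 10), with Benjamini-Hochberg adjustment over 16370 tested genes and calls at an adjusted p under 0.05. The procedure was tested on simulated data. Depth was 32838321 to 43368309 counts per liver. The study states no model for these livers. Alternatives were DESeq2 1.42.0, limma 3.58.1 on log2(TPM + 1) and log2(TPM + 0.1), TMM factors computed without the 100 most abundant genes, plain library size scaling, no filter, a replicate block, only the 2 groups compared, and leave-one-out fits for all 6 livers. A group left with 1 liver was assumed to vary like the other groups.

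Python 3.11.15 was used for descriptions and plots. Positions and promoters came from RefSeq tables on GRCm38.p6, where 20136 of 20140 symbols matched, and exon numbers from GENCODE M21. The 6 members and the 20 gene lists, which were written by hand, were chosen with earlier results of these data known. By the naming rule the text names all members, up to 3 called genes per list and direction or else the most abundant gene, a few hyaluronan genes, the 3 genes most like each member (mean of at least 10 CPM) and called neighbours within 100 kb. Further genes, such as Plg and Klkb1, were named after their values were seen.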

Additional observations from a re-analysis of the deposited data

How the results depend on the processing

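Across 14 alternatives, the log2 fold change of Itih3 ranged from 2.87 to 3.21 in intra-C and from 2.23 to 2.67 in intra-S livers, called in 12 of 14 in both comparisons and lost without either sham liver. Itih4 ranged from 2.48 to 2.78 (called in 10) and from 1.09 to 1.96 (called in 6), and Ambp from 0.78 to 1.12 (6) and from 0.56 to 0.95 (4). In intra-C livers, 3 members were called, with 5 under DESeq2 and 5 with only the 2 groups compared (where 10% and 16.3% of all genes were called higher), which added Itih1 and Itih2, 2 each with library size without TMM and both limma settings, which lost Ambp, and between 0 and 5 when a liver was left out. In intra-S livers, 2 were called, with 3 each under DESeq2 and with no filter on low counts (where 11.5% and 5.88% of all genes were called higher), 1 each with only the 2 groups compared, with library size without TMM and with limma on log2(TPM + 1) and log2(TPM + 0.1) (1.75%, 5.12%, 4.18% and 4.91%), and between 0 and 4 when a liver was left out. Between intra-S and intra-C livers, 0 were called, with 1 under DESeq2 (where 1.81% of all genes were called lower) and between 0 and 3 when a liver was left out. The cause of these differences was not tested, other than the loss of a liver in the last setting.

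Directions turned only near 0. Itih5 in intra-S versus sham livers was at -0.003 with library size without TMM, -0.0067 with limma on log2(TPM + 1) and -0.0063 on log2(TPM + 0.1), and Itih1 at -0.044 with both limma settings. Itih5 in intra-S versus intra-C livers was at 0.024 without intra-C liver 1, in a range from -0.5 to 0.024 when a liver was left out. Library size without TMM moved the median of all genes to -0.25 in intra-C and -0.23 in intra-S livers and the calls over all genes to 569 higher and 801 lower, and 838 and 1115, from 806 and 389, and 1110 and 646. With limma on log2(TPM + 1) they were 497 and 896, and 685 and 1553. The replicate numbers did not pair the livers (correlations of deviations -0.032, 0.083 and 0.043 over 16370 genes), and the fit with the replicate block called 2, 2 and 0 members, with Ambp losing its call in intra-C livers (adjusted p = 0.0628, with a range from 3.61e-05 to 0.335 over the alternatives). Over the whole table, leaving out a liver moved the calls higher to between 0 and 2546 in intra-C and between 0 and 3010 in intra-S livers, and DESeq2 called 1662 higher and 1049 lower, and 2003 and 1397. The lowest count of a member was 250, for Itih5.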
